A study of Mus musculus with 8 samples.

Results

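The 39 genes described here encode the enzymes that make cholesterol and unsaturated fatty acids, the proteins that control those enzymes, and the proteins that carry or export sterols. They were chosen by gene symbol, from a fixed list, among the 48321 symbols counted in natural killer (NK) cells of the lung and spleen. Of the 39, 37 had enough reads to be tested, among 12595 genes tested in all, and *Fdps* and *Fads2* did not. The list follows the function of the genes and no threshold on these values, though earlier results of the data were known when it was made. The question asked of it was whether *Stard4*, a sterol carrier, moved together with the rest of the pathway.

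RNA was sequenced from freshly sorted CD45+ TCRb- NK1.1+ cells of C57/Bl6 mice, in 8 libraries. There were 2 libraries for each of 4 groups: lung Wt, lung KO, spleen Wt and spleen KO. KO stands for *Ccl5*ΔPE/ΔPE, mice homozygous for a small CRISPR/Cas9 deletion of the proximal enhancer (PE) of *Ccl5*, which encodes a chemokine that attracts T and NK cells; no other allele and no treatment was given to any group. The study's methods describe young adult mice of both sexes and give neither the age or sex nor the mouse behind each library, so p-values measure the spread between libraries, which may be technical. The deletion is in the germ line and therefore present in every cell of the KO mice, and NK cells of KO mice developed without the enhancer.

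Cells make cholesterol from acetyl-CoA in a long chain of reactions. The first steps build isoprenoid units, squalene is then formed and closed into a ring, and the last steps trim the ring to cholesterol. The chain is switched on by SREBP2 (*Srebf2*), a transcription factor held in the endoplasmic reticulum with its escort SCAP by the INSIG proteins as long as sterols are plentiful, and SREBP1 (*Srebf1*) does the same mainly for fatty acid synthesis. Excess sterol acts through the liver X receptors, among them LXRβ (*Nr1h2*), which raise the exporters *Abca1* and *Abcg1* and the ubiquitin ligase gene *Mylip*. STARD4 moves cholesterol between membranes inside the cell and its gene is a known SREBP target. In lymphocytes, activation and division draw on this pathway for new membrane.

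The libraries held between 3132963 and 26482366 counted reads, and spleen KO replicate 1 was the shallowest. Counts are given as CPM, counts scaled to a library size that edgeR's TMM factor has adjusted, and 3 reads correspond to between 0.115 and 0.979 CPM, depending on the library. *Ccl5* itself checked the genotype labels: its level was 19518 and 18349.6 CPM in Wt lung against 2992 and 3195 in KO lung, and 16679 and 15664 CPM in Wt spleen against 2676 and 2432 in KO spleen. NK cell markers were abundant throughout: the 6 of them summed to at least 33800 CPM in every library, with *Ncr1* between 2801 and 3456 CPM. Lung epithelial markers were read in lung libraries (253 to 403 CPM summed over 7 genes, mostly *Sftpc*) and at 0.326 to 0.935 CPM in spleen libraries.

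Several promoters are shown because their genes fell together in spleen KO cells. *Tm7sf2*, *Lss*, *Srebf2* and *Nr1h2* are 4 of the 5 genes of the list with the largest fall there. *Hmgcs1*, whose fall was called in edgeR but not in DESeq2, is added as the one promoter of the list that holds the searched sterol element core. Each window runs from 250 bases before to 50 after the start site given by RefSeq, 5′ to 3′ on the gene's strand (GRCm38.p6). Capitals mark the letters CCAAT (or ATTGG on the other strand), bound by NF-Y, and the sterol regulatory element core TCACNCCAC on either strand. In the windows shown, no letter belongs to both motifs.
*Hmgcs1*, chr13:119690101-119690400, plus strand: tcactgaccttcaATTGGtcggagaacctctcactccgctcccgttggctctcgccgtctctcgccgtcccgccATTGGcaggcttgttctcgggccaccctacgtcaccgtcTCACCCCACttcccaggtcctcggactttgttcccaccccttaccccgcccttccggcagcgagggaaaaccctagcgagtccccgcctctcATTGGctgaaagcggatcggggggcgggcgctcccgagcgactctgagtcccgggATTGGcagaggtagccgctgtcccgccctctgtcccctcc
*Lss*, chr10:76531355-76531654, plus strand: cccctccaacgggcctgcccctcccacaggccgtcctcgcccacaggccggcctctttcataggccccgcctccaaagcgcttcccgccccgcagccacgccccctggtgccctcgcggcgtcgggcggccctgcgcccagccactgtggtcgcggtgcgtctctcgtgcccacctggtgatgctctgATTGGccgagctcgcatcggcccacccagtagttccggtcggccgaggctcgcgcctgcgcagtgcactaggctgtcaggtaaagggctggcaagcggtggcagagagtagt
*Srebf2*, chr15:82147019-82147318, plus strand: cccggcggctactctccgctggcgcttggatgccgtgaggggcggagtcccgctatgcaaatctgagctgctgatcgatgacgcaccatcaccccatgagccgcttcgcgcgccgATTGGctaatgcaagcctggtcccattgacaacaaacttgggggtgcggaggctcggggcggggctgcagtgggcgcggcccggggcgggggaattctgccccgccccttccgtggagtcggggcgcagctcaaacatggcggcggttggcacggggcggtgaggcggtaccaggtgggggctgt
*Tm7sf2*, chr19:6067801-6068100, minus strand: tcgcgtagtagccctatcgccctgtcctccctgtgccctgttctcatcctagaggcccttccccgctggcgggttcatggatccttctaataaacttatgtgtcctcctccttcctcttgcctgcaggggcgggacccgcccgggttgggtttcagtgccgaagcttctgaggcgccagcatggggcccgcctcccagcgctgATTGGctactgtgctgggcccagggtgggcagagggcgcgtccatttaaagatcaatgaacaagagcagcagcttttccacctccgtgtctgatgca
*Nr1h2*, chr7:44553916-44554215, minus strand: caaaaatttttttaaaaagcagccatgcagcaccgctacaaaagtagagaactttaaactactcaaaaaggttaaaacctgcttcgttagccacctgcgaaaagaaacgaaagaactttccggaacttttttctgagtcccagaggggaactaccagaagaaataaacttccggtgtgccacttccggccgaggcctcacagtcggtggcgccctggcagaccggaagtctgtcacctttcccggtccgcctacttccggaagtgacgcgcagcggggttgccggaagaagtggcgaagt

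The reference table held a promoter window for 30 of the 39 genes. The sterol element core was found in 1 of these 30 (3.33%), in *Hmgcs1* at position -137 from the start site, where it reads TCACCCCAC, against 1.24% of all 32851 windows and 1.4% of the 8670 tested genes that had a window. CCAAT was found for 23 of the 30 genes (76.7%), against 43.0% of the tested genes. GGGCGG, the letters bound by Sp1, was found for 25 (83.3%), against 68.0%. Among the genes shown above, *Nr1h2* held none of these letters in this window. A match of letters is a description of the window and shows no binding.

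*Stard4* was higher in KO NK cells of both organs, and no difference between the organs was called. It was read at 42.8 and 41.7 CPM in Wt lung against 131 and 125 in KO lung, and 40.5 and 42.9 CPM in Wt spleen against 119 and 121 in KO spleen. All 4 KO libraries thus lay far above all 4 Wt libraries, with no overlap. The change was 3.01-fold in lung (log2 fold change 1.59, SE 0.0729, edgeR adjusted p = 5.67e-20) and 2.87-fold in spleen (log2 fold change 1.52, SE 0.0683, edgeR adjusted p = 4.13e-20). The difference between these effects was 0.07 on the log2 scale (SE 0.106, edgeR adjusted p = 0.599), and lung and spleen differed by 0.01 in Wt (SE 0.0902, adjusted p = 0.929) and by 0.08 in KO (SE 0.0549, adjusted p = 0.199). Ranked by p over all genes tested, *Stard4* stood at place 13 in lung and 8 in spleen, and 113 genes rose by more than 1 on the log2 scale in both organs.

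The rest of the pathway was divided. Of the 36 other genes tested, 11 rose and 12 fell in lung KO cells (63.9% called), while 55.6% of all genes tested were called there (29.2% higher and 26.4% lower). In spleen KO cells 10 rose and 12 fell (61.1%), against 57.1% of all genes (28.2% higher and 28.9% lower). The shares of called genes were thus near those of the whole transcriptome. The median change of these 36 genes was 0.00074 in lung and -0.03 in spleen on the log2 scale, beside 0.02 and 0 to 2 decimals over all genes tested. With *Stard4*, 24 of the 37 were called in lung and 23 in spleen. Without spleen KO replicate 2, the deepest library, 15 of the 37 were called in spleen, 10 higher and 5 lower, and the share of all genes called fell to 35.2% as well.

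Besides *Stard4*, *Sc5d* and *Fads1* rose in both organs, and *Npc1* fell in both. The spleen calls of *Sc5d* and *Fads1* were lost in DESeq2 (adjusted p = 0.0541 and 0.26). The other 13 of the 17 genes called in both organs moved in opposite directions (76.5%), as did 3402 of the 4367 genes called in both organs over the whole transcriptome (77.9%). Of the 13, 5 rose in lung and fell in spleen (*Mvd*, *Lss*, *Dhcr7*, *Acly* and *Nr1h2*) and 8 fell in lung and rose in spleen (*Acat2*, *Ebp*, *Insig2*, *Scd2*, *Npc2*, *Abca1*, *Abcg1* and *Mylip*). Some of these calls rested on 1 library or on the setting. In lung *Lss* (log2 fold change 0.50), *Insig2* (-0.18) and *Dhcr7* (0.22) lost theirs without lung KO replicate 2. *Dhcr7* also lost its lung call in DESeq2 (adjusted p = 0.3) and with an offset for GC content (0.096, edgeR adjusted p = 0.53). In spleen *Mvd* (-0.34) and *Mylip* (0.16) lost theirs without spleen KO replicate 2. The direct test of the difference between organs called 24 of the 37 (64.9%, 15 with a more positive effect in lung and 9 in spleen), against 61.6% of all genes (32.5% and 29.0%). This split changed with the setting. It was 7 and 9 in DESeq2, where 42.3% of all genes were called. With at least 10 reads in every library it was 10 and 9, but only 28 genes of the list were then tested. In that setting 66.7% of all genes were called. When the 4 group means were split into a genotype part, an organ part and a crossed part, in which lung Wt goes with spleen KO, the crossed part was the largest for 19 of the 37 genes (51.4%), the genotype part for 11 (29.7%) and the organ part for 7 (18.9%). Over all genes tested these shares were 43.8%, 19.5% and 36.7%.

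**Figure D1:**
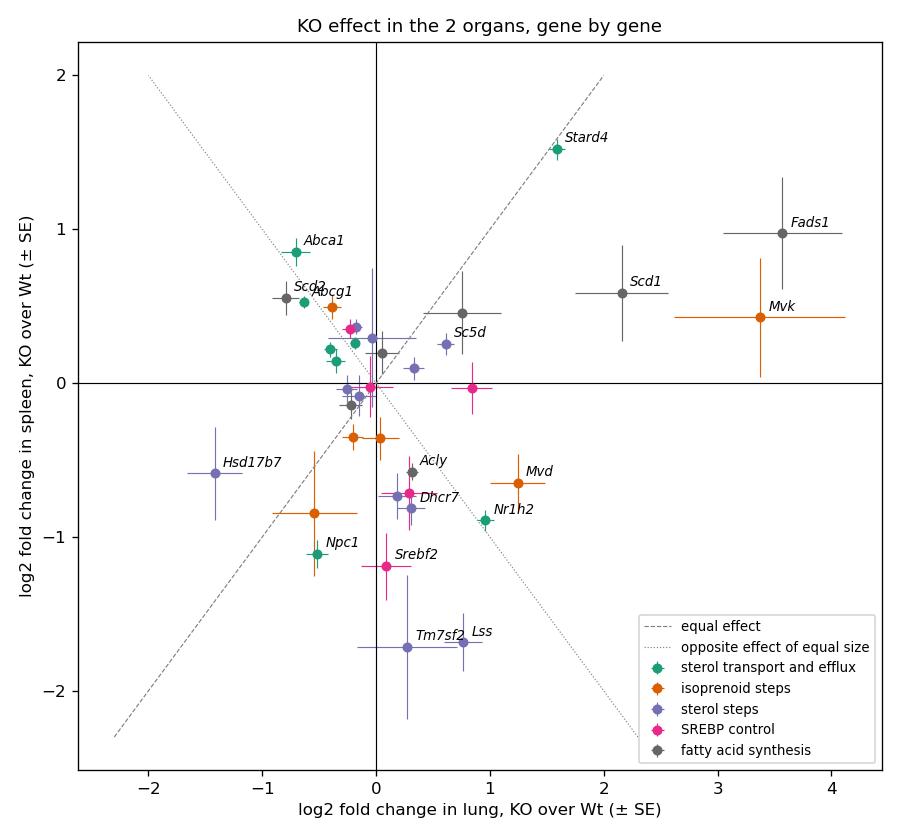
KO effect of each of the 37 genes in lung (x axis) against spleen (y axis), as log2 fold changes with standard errors, coloured by role; 2 libraries per group. *Stard4* lies beside the line of equal effect at 1.59 and 1.52, while *Nr1h2*, *Abca1* and *Abcg1* lie near the line of opposite effects.

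Of the genes of sterol transport and efflux, all 8 were called in lung (2 higher, 6 lower) and 7 of 8 in spleen (5 higher, 2 lower), beside 55.6% and 57.1% of all genes. They include *Abcg1* and *Npc2*, the genes that weigh most in the summed level of the list, and *Npc2* was called at -0.19. Whether this group changed more often than the others was not tested. *Abcg1*, an exporter of cholesterol to HDL, was read at 778 and 793 CPM in Wt lung against 507 and 504 in KO lung, and 529 and 539 CPM in Wt spleen against 769 and 771 in KO spleen. Lung Wt and spleen KO were high and close to each other, and the other 2 groups were low. It fell in lung KO (log2 fold change -0.63, SE 0.0381, edgeR adjusted p = 1.55e-16) and rose in spleen KO (log2 fold change 0.53, SE 0.0375, edgeR adjusted p = 2.16e-14).

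*Abca1*, which loads cholesterol onto lipid-poor apolipoproteins, had 27.8 and 34.5 CPM in Wt lung against 17 and 19.5 in KO lung, and 31.5 and 28.9 CPM in Wt spleen against 52.6 and 54 in KO spleen. Both Wt groups overlapped, with lung KO below and spleen KO above them. It fell in lung (log2 fold change -0.71, SE 0.126, edgeR adjusted p = 1.09e-05) and rose in spleen (log2 fold change 0.85, SE 0.0908, edgeR adjusted p = 4.58e-10). *Nr1h2*, the receptor that drives both exporters, moved the other way, at 52 and 57 CPM in Wt lung against 108 and 102 in KO lung, and 107 and 107 CPM in Wt spleen against 64.6 and 56 in KO spleen. It was 1.95-fold as high in KO in lung (log2 fold change 0.96, SE 0.0758, edgeR adjusted p = 2.63e-13) and fell in spleen (log2 fold change -0.89, SE 0.0659, edgeR adjusted p = 5.67e-14), so that in each organ the receptor and its exporters changed in opposite directions.

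*Mylip*, another liver X receptor target, sided with the exporters, at 172 and 166 CPM in Wt lung against 135 and 123 in KO lung, and 201 and 194 CPM in Wt spleen against 219.7 and 232 in KO spleen. The 4 groups did not overlap, and the change was -0.40 in lung (SE 0.058) and 0.22 in spleen (SE 0.0493), both called. *Soat1*, which esterifies cholesterol for storage, fell in lung (-0.35) and was at 0.14 in spleen without passing the test (edgeR adjusted p = 0.112).

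The genes of the 2 proteins that pass cholesterol out of the lysosome both fell in lung KO and moved apart in spleen KO. *Npc1*, the membrane protein of the pair, was read at 46.6 and 48.4 CPM in Wt lung against 34 and 32.2 in KO lung, and 46.2 and 49.3 CPM in Wt spleen against 18.6 and 23 in KO spleen. Wt cells of the 2 organs overlapped and both KO groups lay below them, spleen KO lowest. It fell in lung (log2 fold change -0.52, SE 0.0987, edgeR adjusted p = 2.77e-05) and further in spleen (log2 fold change -1.11, SE 0.0912, edgeR adjusted p = 9.35e-13), and the difference between these effects was itself called (0.59, SE 0.135, adjusted p = 0.000267). *Npc2*, the soluble partner, moved by -0.19 in lung and 0.26 in spleen, both called.

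**Figure D2:**
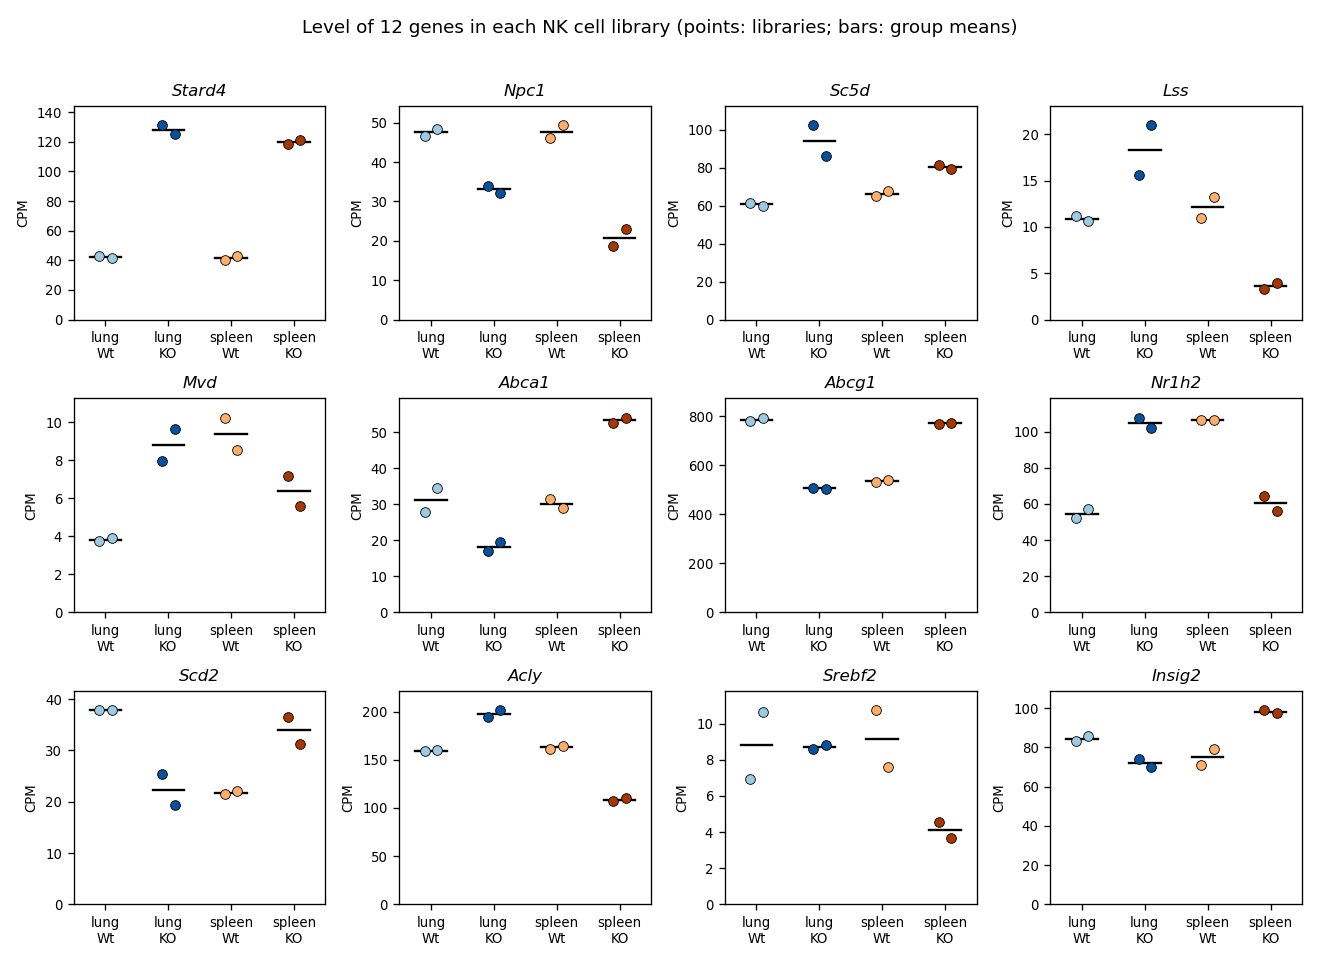
CPM (y axis, from 0) of 12 of the genes in each library, by group (x axis); points are libraries and bars are means of 2. *Stard4* is high in both KO groups (119 to 131 CPM), *Npc1* is low in both, and *Abcg1*, *Nr1h2* and *Scd2* have lung Wt beside spleen KO.

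The enzymes of sterol synthesis were called about as often as other genes. Of 17 tested, 6 rose and 4 fell in lung KO (58.8%), beside 55.6% of all genes (29.2% higher and 26.4% lower). In spleen KO 3 rose and 7 fell (17.6% and 41.2%, together 58.8%). Over all genes the spleen shares were 28.2% higher and 28.9% lower, together 57.1%. The direction of these enzymes was not tested as a set. In their summed level the groups lay close, at 571.76 and 591.92 CPM in Wt lung against 577.21 and 577.4 in KO lung, and 549.8 and 548.7 CPM in Wt spleen against 608.83 and 582.88 in KO spleen. *Ebp* alone gave 202 and 213 CPM of this sum in lung Wt, so it says little of the single steps.

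Of 6 tested genes of the isoprenoid steps, 2 rose and 1 fell in lung KO, and 1 rose and 3 fell in spleen KO. Called were thus 50.0% and 66.7%, beside 55.6% and 57.1% of all genes. *Mvd*, which makes isopentenyl diphosphate, showed the crossed pattern at 3.73 and 3.89 CPM in Wt lung against 7.98 and 9.66 in KO lung, and 10.2 and 8.53 CPM in Wt spleen against 7.18 and 5.59 in KO spleen. Lung Wt was lowest and did not overlap any other group. It rose in lung KO (log2 fold change 1.24, SE 0.244, edgeR adjusted p = 4.53e-05) and fell in spleen KO (log2 fold change -0.65, SE 0.188, edgeR adjusted p = 0.00338), a fall that was lost in DESeq2 (adjusted p = 0.18) and was -0.34 without spleen KO replicate 2. *Acat2*, which joins 2 acetyl-CoA molecules at the head of the chain, was crossed the other way, at 75.7 and 73.8 CPM in Wt lung against 58.9 and 56.1 in KO lung, and 53 and 44.1 CPM in Wt spleen against 64 and 67 in KO spleen. It fell in lung (-0.39) and rose in spleen (0.50). Reads of *Acat2* may be shared with its neighbouring near-identical copy *Acat3*.

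*Mvk*, mevalonate kinase, was nearly silent in lung Wt, with 2 reads in replicate 1 and none in replicate 2, and had 23 reads in both lung KO libraries together. Its levels were 0.249 and 0 CPM in Wt lung against 2.05 and 1.77 in KO lung, and 1.249 and 1.52 CPM in Wt spleen against 2.94 and 1.8 in KO spleen. The ratio of lung KO to lung Wt was 11.2, with an exact 95% interval of 2.76 to 97.9 for counting error only (log2 fold change 3.37, SE 0.752, edgeR adjusted p = 0.000239). That log2 fold change depends on the single Wt library with reads: it was 6.97 without lung Wt replicate 1, which leaves Wt at no read, and 2.85 without replicate 2. Spleen did not pass the test (log2 fold change 0.43, SE 0.386, edgeR adjusted p = 0.354).

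*Hmgcs1*, *Pmvk*, *Idi1* and *Fdps* complete the isoprenoid steps. *Hmgcs1*, an early step of the chain, fell in spleen (-0.35) and had -0.21 in lung (edgeR adjusted p = 0.0627). Its spleen fall was not called in DESeq2 (adjusted p = 0.0833). It was -0.23 without spleen Wt replicate 2 and -0.30 without spleen KO replicate 2. *Pmvk* fell in spleen as well (-0.36), a call lost in DESeq2 (adjusted p = 0.351) and with an offset for GC content (-0.09, edgeR adjusted p = 0.599). *Idi1* was called in neither organ (-0.54 and -0.85). *Fdps* was read at 0.653 to 1.81 CPM and was not tested, and it overlaps *Gm43738* on the same strand over 1124 bases of exon, where a read cannot be assigned to one gene.

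Of the 11 genes of the sterol steps, 4 rose and 3 fell in lung KO, and 2 rose and 4 fell in spleen KO. That is 63.6% and 54.5% called, beside 55.6% and 57.1% of all genes. Lanosterol synthase (*Lss*), which closes squalene epoxide into the first sterol, changed most clearly. It was read at 11.2 and 10.6 CPM in Wt lung against 15.6 and 21 in KO lung, and 11 and 13.2 CPM in Wt spleen against 3.26 and 3.95 in KO spleen. Lung KO was high and spleen KO low, while Wt cells of the 2 organs overlapped. It rose in lung KO (log2 fold change 0.77, SE 0.166, edgeR adjusted p = 0.000168) and fell in spleen KO (log2 fold change -1.69, SE 0.189, edgeR adjusted p = 1.43e-09), the largest called difference between organs among the genes with at least 10 reads in every library (log2 fold change 2.45, SE 0.251, edgeR adjusted p = 9.23e-11).

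*Tm7sf2* and *Srebf2* fell in spleen KO and not detectably in lung. *Tm7sf2*, a sterol reductase, had 1.24 and 2.59 CPM in Wt lung against 1.84 and 2.18 in KO lung, and 2.5 and 1.52 CPM in Wt spleen against 0.653 and 0.536 in KO spleen, which in spleen KO rests on 16 reads, and the ratio to spleen Wt was 0.3 (exact 95% interval 0.148 to 0.592, counting error only). Its fall in spleen (log2 fold change -1.71, SE 0.47, edgeR adjusted p = 0.00209) was lost in DESeq2 (adjusted p = 0.0691) and without spleen KO replicate 2 (adjusted p = 0.248). *Tm7sf2* also shares 532 bases of exon with *Vps51* on the same strand.

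The trimming steps went different ways. *Cyp51*, which removes a methyl group from lanosterol, fell in spleen (-0.73) and was at 0.18 in lung without a call. Its spleen fall was -0.34 without spleen KO replicate 2. *Dhcr7*, which acts near the end of the chain, rose in lung (0.31) and fell in spleen (-0.81), and the sterol isomerase *Ebp* fell in lung (-0.17) and rose in spleen (0.37). *Sc5d*, the sterol desaturase, rose in both organs, from 61.5 and 59.8 CPM to 102 and 86.3 in lung and from 65.2 and 67.5 to 81.6 and 79.1 in spleen, by 0.61 (SE 0.0775) and 0.25 (SE 0.0708) on the log2 scale. These rises were smaller than those of *Stard4*, and the one in lung was the larger (0.36, SE 0.106, edgeR adjusted p = 0.0038 for the difference). DESeq2 called neither the rise of *Sc5d* in spleen (adjusted p = 0.0541) nor this difference (0.0855). With an offset for GC content the spleen rise was 0.15 and not called (edgeR adjusted p = 0.0644).

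*Hsd17b7*, a ketosteroid reductase, fell in lung KO. It was read at 9.82 and 16.1 CPM in Wt lung against 4.09 and 4.76 in KO lung, and 3 and 3.97 CPM in Wt spleen against 1.96 and 2.49 in KO spleen. Lung Wt was high and the other 3 groups low. The change in lung was -1.42 (SE 0.24, edgeR adjusted p = 4.87e-06), spleen was at -0.59 (adjusted p = 0.0934), and the difference between these effects was not called (-0.83, adjusted p = 0.061). *Msmo1* rose in lung (0.33) and *Nsdhl* fell there (-0.26), neither being called in spleen. The lung fall of *Nsdhl* was not called in DESeq2 (adjusted p = 0.137). With library totals it was -0.165 and not called (edgeR adjusted p = 0.136). *Fdft1* and *Sqle*, the steps around squalene, were called in neither organ.

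**Figure D3:**
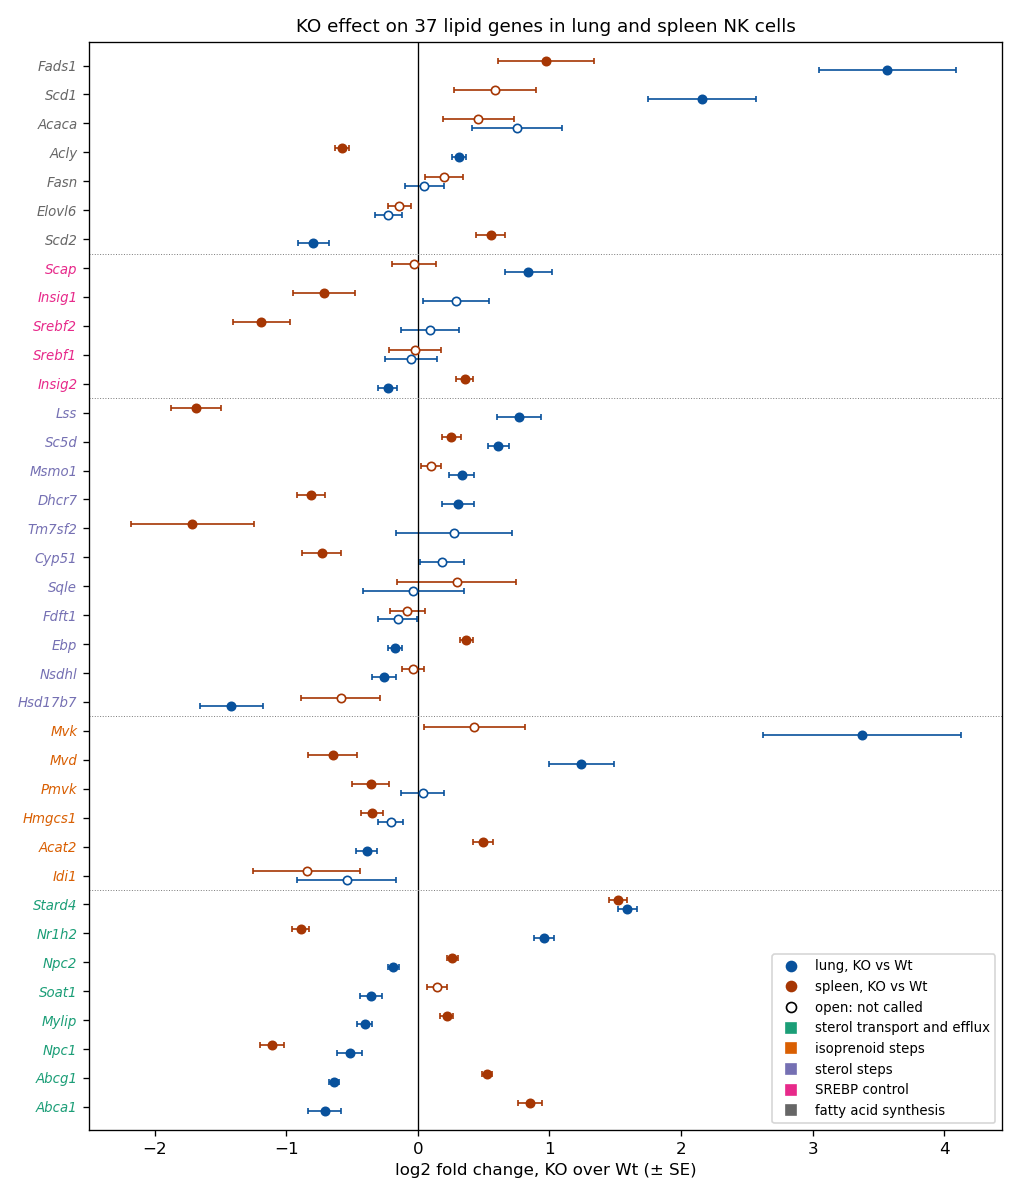
Log2 fold change of KO over Wt (x axis, ± SE) for the 37 genes (y axis) in lung (blue) and spleen (brown), grouped by role; open circles did not pass an FDR of 0.05. The 2 points of *Stard4* lie side by side, and those of *Lss*, *Nr1h2*, *Abca1*, *Abcg1* and *Acly* lie on opposite sides of 0.

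Of the 5 genes that control the pathway, 1 rose and 1 fell in lung KO, and 1 rose and 2 fell in spleen KO. The shares called were 40.0% and 60.0%, beside 55.6% and 57.1% of all genes. *Srebf2* was read at 6.96 and 10.6 CPM in Wt lung against 8.6 and 8.84 in KO lung, and 10.7 and 7.59 CPM in Wt spleen against 4.57 and 3.68 in KO spleen. Spleen KO was below all other libraries and the other 3 groups overlapped. It fell in spleen (log2 fold change -1.19, SE 0.218, edgeR adjusted p = 1.55e-05) and was at 0.09 in lung (adjusted p = 0.75), and without spleen KO replicate 2 the spleen call was lost (adjusted p = 0.0564). *Srebf1* was called in neither organ (-0.05 and -0.02).

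*Scap*, the escort of both factors, rose in lung (0.84) and was at -0.03 in spleen. Its lung rise was 0.55 without lung KO replicate 2. With an offset for GC content and the replicate number as a block, that rise was 0.38 and not called (edgeR adjusted p = 0.0659). The 2 INSIG genes differed. *Insig1*, itself an SREBP target, fell in spleen (-0.71), whereas *Insig2* fell in lung (-0.23) and rose in spleen (0.35). In DESeq2 the fall of *Insig1* was not called (adjusted p = 0.176). It was -0.45 without spleen Wt replicate 2 and -1.12 without spleen KO replicate 2. The lung fall of *Insig2* was not called in DESeq2 either (adjusted p = 0.076). With library totals that fall was -0.14 and not called (edgeR adjusted p = 0.113). *Scap* overlaps another transcript on the opposite strand over 985 bases, and the strand setting of the counting is not given in the sources used here.

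In fatty acid synthesis, 3 of 7 tested genes rose and 1 fell in lung KO, and 2 rose and 1 fell in spleen KO. These are 57.1% in lung and 42.9% in spleen, beside 55.6% and 57.1% of all genes. *Acly*, which makes cytosolic acetyl-CoA for both pathways, was read at 159 and 159.8 CPM in Wt lung against 194 and 201 in KO lung, and 161 and 164 CPM in Wt spleen against 107 and 110.2 in KO spleen. Lung KO was highest, spleen KO lowest, and the Wt groups lay between them. It changed by 0.31 in lung (SE 0.0523) and -0.57 in spleen (SE 0.0525), both called.

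The 2 stearoyl-CoA desaturases, which introduce the first double bond, went apart in lung. *Scd2*, the more abundant, was read at 37.8 and 37.8 CPM in Wt lung against 25.4 and 19.3 in KO lung, and 21.5 and 22.1 CPM in Wt spleen against 36.6 and 31.3 in KO spleen. It followed *Abcg1*, with a fall in lung (log2 fold change -0.79, SE 0.119, edgeR adjusted p = 5.79e-07) and a rise in spleen (log2 fold change 0.55, SE 0.109, edgeR adjusted p = 4.41e-05). *Scd1* was read at 1.24 and 0.777 CPM in Wt lung against 6.14 and 4.08 in KO lung, and 3.75 and 1.75 CPM in Wt spleen against 4.24 and 3.52 in KO spleen and rose in lung (log2 fold change 2.16, SE 0.407, edgeR adjusted p = 2.47e-05), where 60 reads in KO stood against 13 in Wt (ratio 4.49, exact 95% interval 2.44 to 8.92), and its spleen libraries overlapped.

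*Fads1*, a desaturase of polyunsaturated fatty acids, had 0.249 and 0.518 CPM in Wt lung against 3.07 and 4.9 in KO lung, and 1.249 and 1.4 CPM in Wt spleen against 2.61 and 2.68 in KO spleen. Both KO groups were above both Wt groups, but lung Wt held only 2 reads in each library. In lung the ratio was 12.4 (exact 95% interval 4.56 to 47.3, counting error only), with log2 fold change 3.57, SE 0.524, edgeR adjusted p = 3.95e-07. The rise in spleen (log2 fold change 0.97, SE 0.363, edgeR adjusted p = 0.021) was lost in DESeq2 (adjusted p = 0.26) and without spleen KO replicate 2 (adjusted p = 0.293). *Fasn*, *Acaca* and *Elovl6* were called in neither organ, and *Fads2* had at most 1 read in any library.

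The genes nearest to *Stard4* over the 2 KO effects and the organ difference in Wt were *Acaca* (Euclidean distance 1.423 in log2 units), *Scd1* (1.581), *Sc5d* (1.607), *Scap* (1.731) and *Msmo1* (1.978). All 5 lay more than 1 log2 unit away, and *Acaca* was called in neither organ. The summed level of the other genes, in which *Abcg1* and *Npc2* weigh most, was 2605.4 and 2648.8 CPM in Wt lung against 2274.9 and 2266.1 in KO lung, and 2350.3 and 2342.7 CPM in Wt spleen against 2706.3 and 2665.9 in KO spleen. The sum was lower in KO in lung and higher in KO in spleen, while *Stard4* was higher in KO in both.

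*Stard4* did share its pattern with the gene beside it. The gene lies on chromosome 18 (chr18:33199355-33213862, GRCm38), and *Camk4*, which encodes a calcium/calmodulin-dependent kinase, is the next gene, 8127 bases away (chr18:32934931-33191228). *Camk4* was read at 6.09 and 7.51 CPM in Wt lung against 22.1 and 20.5 in KO lung, and 7.49 and 6.89 CPM in Wt spleen against 24.2 and 19.2 in KO spleen. All KO libraries lay above all Wt libraries, as for *Stard4*. It rose in lung (log2 fold change 1.69, SE 0.175, edgeR adjusted p = 2.4e-10) and in spleen (log2 fold change 1.49, SE 0.154, edgeR adjusted p = 2.63e-10), with no called difference between these effects (0.20, SE 0.253, adjusted p = 0.508).

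The genes around *Stard4*, within 500 kb on either side, were looked at after the values of *Stard4* had been seen. Only 3 of the genes listed there were tested. *Wdr36*, 331761 bases away, was at 0.09 in lung without a call and rose by 0.25 in spleen. *Nrep*, on the other side, fell in lung from 10.2 and 12.2 to 3.07 and 2.86 CPM and had at most 3 reads in any spleen library. So the shared rise was seen for *Stard4* and *Camk4* and not for the other tested genes of this window, and the deletion itself lies on another chromosome.

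**Figure D4:**
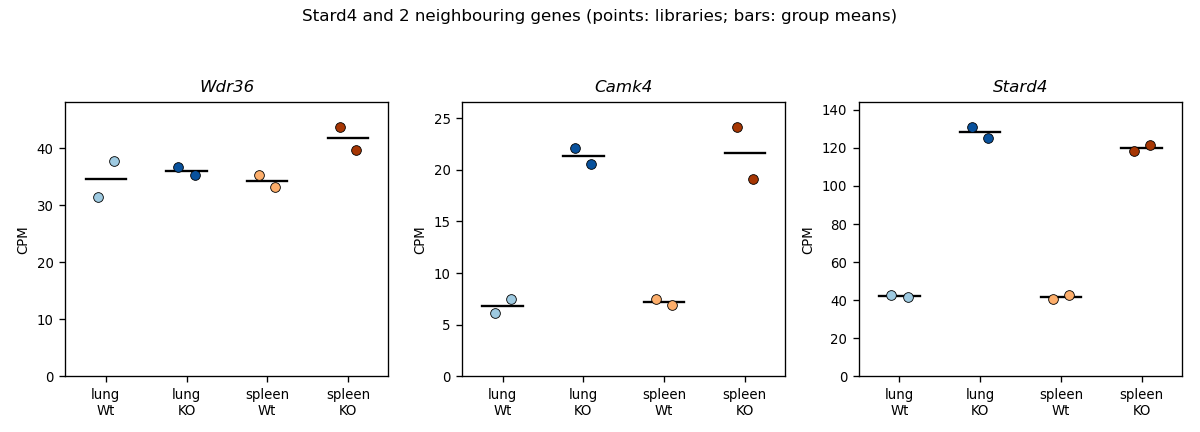
CPM (y axis, from 0) of *Wdr36*, *Camk4* and *Stard4* in each library by group (x axis); points are libraries and bars are means of 2. *Camk4* and *Stard4* are about 3 times as high in the KO groups, while *Wdr36* stays between 31.5 and 43.7 CPM.

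Between the organs, Wt NK cells differed in 17 of the 37 genes (45.9%, 9 higher and 8 lower in lung), against 57.0% of all genes (27.7% higher and 29.3% lower). Under scaling by library totals the split was 6 higher and 10 lower. *Hsd17b7* was the gene with the highest lung to spleen ratio (log2 fold change 1.71, SE 0.25, edgeR adjusted p = 3.07e-07), followed by *Sqle* (log2 fold change 1.17, SE 0.459, edgeR adjusted p = 0.0282), for which lung held 22 and 6 reads and spleen 3 and 10. *Scd2* (0.79), *Acat2* (0.67) and *Abcg1* (0.55) were also higher in lung, all called.

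Lower in Wt lung were *Mvk* (log2 fold change -2.98, SE 0.801, edgeR adjusted p = 0.0017; 2 reads against 18), *Fads1* (log2 fold change -1.96, SE 0.685, edgeR adjusted p = 0.0142), *Mvd* (log2 fold change -1.26, SE 0.243, edgeR adjusted p = 2.99e-05), *Scd1* (log2 fold change -1.13, SE 0.478, edgeR adjusted p = 0.0421) and *Nr1h2* (log2 fold change -0.99, SE 0.0755, edgeR adjusted p = 6.97e-14). The calls of *Sqle*, *Fads1* and *Scd1* were lost in DESeq2 (adjusted p = 0.222, 0.0947 and 0.116). Single libraries weighed on these too: the difference of *Mvk* was -6.57 without lung Wt replicate 1, that of *Sqle* 0.60 without the same library, and that of *Scd1* -0.68 and -1.77 without spleen Wt replicate 1 and 2. In KO cells 26 of the 37 genes differed between organs (70.3%, 17 higher and 9 lower in lung), beside 65.6% of all genes (33.9% higher and 31.7% lower), with *Lss* at 2.27 and *Abca1* at -1.54. The split was 9 and 8 both in DESeq2 and without spleen KO replicate 2, and 10 and 9 without lung KO replicate 2. Of the 5 control genes none was called between Wt organs, and in KO cells *Srebf2*, *Scap* and *Insig1* were called higher in lung and *Insig2* lower. The calls of *Scap* (adjusted p = 0.0729) and *Insig1* (0.167) were lost without lung KO replicate 2. *Srebf1*, called at 0.42, lost its call in DESeq2 (adjusted p = 0.494) and changed sign to -0.04 with a GC correction and to -0.02 without spleen KO replicate 2.

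Per kilobase of exon, the scale on which genes can be compared, the mean level over the 4 groups ran from 93.7 CPM per kb for *Npc2*, 88.9 for *Abcg1*, 87.3 for *Ebp* and 55.8 for *Mylip* down to 0.307 for *Sqle*, 0.269 for *Fdps*, 0.187 for *Acaca* and 0.0129 for *Fads2*. *Stard4* stood at 14.9. In lung Wt the order at the top was different, with *Abcg1* at 107.6 and *Npc2* at 95.9. At the lower end *Sqle* held 3 to 32 reads per library and *Acaca*, the first committed enzyme of fatty acid synthesis, 6 to 105, so their changes rest on few reads.

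Other genes of the same pathway, listed apart from the 39, were divided too. Of 34, 25 were tested. In lung KO 11 rose and 4 fell (44.0% and 16.0%), beside 29.2% and 26.4% of all genes. In spleen KO 4 rose and 12 fell (16.0% and 48.0%), beside 28.2% and 28.9% of all genes. Together 60.0% were called in lung and 64.0% in spleen, beside 55.6% and 57.1%. Whether the directions of these genes differed from those of all genes was not tested. All 8 called in both organs went in opposite directions, as did 77.9% of all genes called in both.

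*Erlin1*, a membrane protein of the endoplasmic reticulum, was read at 4.6 and 6.99 CPM in Wt lung against 1.64 and 1.9 in KO lung, and 0.25 and 0.701 CPM in Wt spleen against 5.55 and 5.71 in KO spleen. KO was below Wt in lung and above it in spleen, with no overlap in either organ. It fell in lung (log2 fold change -1.58, SE 0.337, edgeR adjusted p = 0.000133) and rose in spleen (log2 fold change 3.32, SE 0.392, edgeR adjusted p = 4.65e-09), where Wt held 1 and 6 reads. *Apoe*, an apolipoprotein, rose in lung (log2 fold change 1.28, SE 0.333, edgeR adjusted p = 0.00132), *Osbp*, an oxysterol-binding protein, fell there (log2 fold change -1.08, SE 0.186, edgeR adjusted p = 6.8e-06), and *Stard3*, a sterol carrier of late endosomes, fell in spleen (log2 fold change -0.76, SE 0.1, edgeR adjusted p = 4.56e-08). The 9 genes with too few reads to be tested included *Scarb1*, a receptor for HDL.

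Markers of other cells and states moved with the groups too. The 8 proliferation genes summed to 110 to 117 CPM in lung Wt, 214 in both lung KO libraries, 341 to 347 in spleen Wt and 311 to 337 in spleen KO. The 7 dissociation and stress genes summed to 340 to 367 CPM in lung Wt and 743 to 757 in lung KO, and to 42.6 to 48.2 in spleen Wt and 9.47 to 14.1 in spleen KO, with *Hspa1a* and *Hspa1b* at 0 in spleen. In these sums both lists were higher in lung KO than in lung Wt, and the stress genes lower in spleen KO than in spleen Wt.

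Lung epithelial markers summed to 253 to 255 CPM in lung Wt and 365 to 403 in lung KO. Erythroid markers summed to 24.7 to 27.7 CPM in lung Wt and 49.5 to 53.3 in lung KO, and endothelial and stromal markers to 75.4 to 83.4 and 100 to 104 CPM. In that last sum *Pecam1*, read at 57.5 to 60.7 CPM in lung Wt, 78.2 to 80.2 in lung KO and 64.9 to 74.9 in spleen, and *Cldn5* were higher in KO, while the means of *Cdh5*, *Col3a1* and *Col1a1* were lower. The 10 myeloid markers summed to 419 to 424 CPM in lung Wt, 461 to 480 in lung KO and 321 to 337 in spleen, with *Adgre1*, *S100a8* and *Flt3* at 0 in every library. *Itgam*, which mature NK cells also carry, gave 381 to 389 CPM of this sum in lung Wt and 423 to 438 in lung KO, so the sum says little of myeloid cells. Of the others *Lyz2* was higher in lung KO than in lung Wt, and *Cd68* and *Mrc1* were lower. *C1qa* and *C1qb* were at 0 in lung Wt and had reads in lung KO. Alveolar macrophage markers, whose cells carry much lipid, summed to at most 4.48 CPM, with *Marco* at 0 in lung, and B cell markers to 5.18 to 8.30 CPM in lung and 38.2 to 44.4 in spleen. T cell markers lay between 287 and 568 CPM and ILC1 markers between 60.5 and 170, lowest in lung KO. The NK cell markers themselves were crossed, at 47600 to 49100 CPM in lung Wt, 36000 to 36400 in lung KO, 33800 to 34400 in spleen Wt and 45000 to 47300 in spleen KO.

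The part of these markers in the changes of the lipid genes was not tested. In bulk RNA, fewer cells of one kind and less RNA per cell cannot be told apart. The share of counted reads on mitochondrial genes was 1.36 to 1.45% in lung Wt, 0.932 to 0.945% in lung KO, 0.792 to 0.797% in spleen Wt and 0.982 to 1.0% in spleen KO, so lung Wt stood highest. The labels give no batch, and a batch that held lung Wt with spleen KO cannot be told apart from the crossed pattern described above.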

How the data were processed

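RNA of sorted NK cells was sequenced in 8 libraries with reads of 50 bp (NEBNext Ultra kit). Per the labels and the study's methods, the authors aligned the reads to mm10 with HISAT2 2.1.0 and counted them on genes with HTSeq (0.11.1 in the submitters' processing notes). The authors deposited raw read counts per gene symbol, 1 library per file, with no normalization or filter; annotation, strand setting and library batch are not given in the sources used here. HTSeq's rows of uncounted reads (52.7 to 55.0% on no gene, 0.686 to 0.768% ambiguous) were left out.

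Groups and replicate numbers came from the sample titles. The counts were fitted with edgeR 4.0.16 under R 4.3.3 (filterByExpr, TMM, glmQLFit and glmQLFTest, 1 mean per group over all 8 libraries). The p-values were adjusted by Benjamini-Hochberg over the whole table and calls made at an FDR of 0.05. Compared were KO and Wt within each organ, the 2 KO effects with each other, and the 2 organs within each genotype. SE is the log2 fold change over the square root of the F statistic; the common biological coefficient of variation was 2.5%. CPM use TMM-scaled library sizes. With 2 libraries against 2, an exact permutation test cannot go below p = 0.333. Intervals and floors of 3 reads cover counting error only. Counts were also simulated for lung KO against Wt (12013 genes), with the same variation of 2.5% and only a small share of genes changed. There, 30% of genes changed 1.25-fold, 60% of those changed 1.5-fold, 76% of those changed 2-fold and 96% of those changed 4-fold were recovered. In that setting 1.5% of calls were false, and libraries that vary more were not simulated.

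The genes and lists were chosen with earlier results of these data known. Full statistics go to *Stard4* and, in the first 4 comparisons, to the 5 genes with the largest change in each direction among those called with no overlap between libraries (no overlap asked of the difference between organs), and to the 3 most changed other pathway genes in each KO comparison, of which some results are not reported here. *Camk4*, *Wdr36* and *Nrep* were chosen after values were seen. Positions and exon lengths came from GENCODE M21 (GRCm38), in which 46394 of the 48321 symbols matched by name and 591 by synonym; promoters came from RefSeq.

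Other settings tried were scaling by library totals, by RLE and by the upper quartile, a minimum of 10 reads per library or no minimum, DESeq2 1.42.0, a fit of only the 4 libraries compared, the replicate number as a block, an offset for GC content (known for 99.3% of genes tested) alone and with the block, assumed coefficients of variation of 0.1 and 0.2, a test against a 1.5-fold change, and leaving out each library in turn.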

Additional observations from a re-analysis of the deposited data

Results flagged for a closer look

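The KO effect differed between lung and spleen for 24 of the 37 genes by edgeR's test of the difference itself. The values that follow are the log2 effect in lung minus that in spleen. The difference was positive, with KO cells relatively higher in lung, for *Mvk* (2.94), *Fads1* (2.59), *Lss* (2.45), *Tm7sf2* (1.99), *Mvd* (1.89), *Nr1h2* (1.85), *Scd1* (1.57), *Srebf2* (1.28), *Dhcr7* (1.12), *Insig1* (1.003), *Cyp51* (0.92), *Acly* (0.89), *Scap* (0.87), *Npc1* (0.59) and *Sc5d* (0.36). These include the receptor gene *Nr1h2* and the control genes *Srebf2*, *Scap* and *Insig1*.

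It was negative for *Abca1* (-1.56), *Scd2* (-1.35), *Abcg1* (-1.16), *Acat2* (-0.89), *Mylip* (-0.62), *Insig2* (-0.58), *Ebp* (-0.54), *Soat1* (-0.50) and *Npc2* (-0.45), a group that holds both sterol exporters. Most genes of the whole transcriptome differed too (61.6%), so the number is not particular to this list. The adjusted p was 0.00515 for *Mvk*, 0.00242 for *Fads1*, 9.23e-11 for *Lss*, 0.0072 for *Tm7sf2* and 1.78e-06 for *Mvd*. It was 5.07e-11 for *Abca1*, 3.64e-09 for *Scd2*, 2.34e-20 for *Abcg1*, 1.02e-08 for *Acat2* and 5.7e-09 for *Mylip*. The calls of *Mvk*, *Fads1* and *Tm7sf2* were lost in DESeq2 (adjusted p = 0.101, 0.0553 and 0.141). That of *Mvk* was also lost without spleen Wt replicate 2 (adjusted p = 0.0546) and without spleen KO replicate 2 (0.075), and its value was 6.53 without lung Wt replicate 1. That of *Fads1* was lost without lung Wt replicate 1 (0.0782), and that of *Tm7sf2* without lung Wt replicate 1 (0.121), lung KO replicate 2 (0.0649) or spleen KO replicate 2 (0.182). Among the other genes, *Cyp51*, *Sc5d*, *Scap*, *Insig1* and *Scd1* lost their calls in DESeq2, and these 5 and *Srebf2* lost them without at least 1 of the libraries. With the offset for GC content, the difference fell to 0.16 for *Scap* (edgeR adjusted p = 0.607) and to 0.62 for *Srebf2* (0.0755), and neither was called.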

How the results depend on the processing

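The rise of *Stard4* in KO cells held under all 21 alternatives in each organ, at 1.57 to 1.63 in lung and 1.49 to 1.58 in spleen when 1 library was left out, and at 1.58 to 1.68 and 1.44 to 1.54 under the other settings. Its organ difference in Wt, near 0 and never called, was -0.10 with library totals, -0.056 with the GC offset, -0.064 with the GC offset and replicate block, and -0.022 to 0.066 when 1 library was left out. In KO that difference passed the test with library totals (0.13, adjusted p = 0.0325) and with the GC offset (0.12, adjusted p = 0.0433). The number of called genes of the list fell with an assumed coefficient of variation of 0.1 to 15 in lung and 11 between Wt organs, where 34.9% and 37.1% of all genes were called. With one of 0.2 it fell to 7 in lung, 5 in spleen, 8 for the difference between organs, 4 between Wt organs and 7 between KO organs, and the shares of all genes to 12.4%, 9.08%, 16.0%, 16.0% and 18.4%. With the test against a 1.5-fold change it was 7, 7, 13, 4 and 7, beside 12.8%, 10.1%, 27.8%, 16.2% and 19.4% of all genes. The assumed coefficients of variation allow more spread between libraries than the fitted 2.5%, while the last test asks for larger changes. DESeq2 called 21 genes in lung, 16 in spleen, 16 for the difference, 12 between Wt organs and 17 between KO organs, beside 35.8%, 33.1%, 42.3%, 38.0% and 44.0% of all genes. Leaving out 1 library gave 20 to 25 called genes in lung, 15 to 23 in spleen, 18 to 25 for the difference, 13 to 18 between Wt organs and 17 to 25 between KO organs. The shares of all genes called in the same fits ran from 40.5 to 55.9%, 35.2 to 58.0%, 50.3 to 58.3%, 43.2 to 57.7% and 45.0 to 65.8%. The lowest values in spleen and between KO organs came without spleen KO replicate 2, which leaves that group with the shallowest library alone, assumed to vary like the other groups. Over the named genes, *Camk4* included, 60 values lost their call under an alternative and 770 kept their direction and their side of the threshold. The *Camk4* difference between organs, never called, ranged from -0.082 to 0.31 when 1 library was left out.

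Equally numbered libraries showed little shared deviation (correlations of -0.0139 for lung Wt and KO and 0.169 for spleen, -0.0758 to 0.081 otherwise, over 5103 genes). The variance between libraries of a group was 1.2 to 1.46 times the counting variance, so these deviations are in large part counting noise. Whether the numbers pair the libraries therefore cannot be decided from this check. With the replicate block, 25 genes of the list were called in lung, 25 in spleen and 25 for the difference. These stood beside 55.4%, 57.0% and 61.6% of all genes. Between organs, 16 were called in Wt and 24 in KO, beside 56.6% and 65.1% of all genes. Of the named values only the organ difference of *Sqle* in Wt lost its call under the block (edgeR adjusted p = 0.0531). Library totals shift the median change of all genes to 0.11 in lung, 0.19 for the difference and -0.12 between Wt organs on the log2 scale, and changes under that scaling are relative to these. At 3 reads the shallowest library reads 0.979 CPM, which limits *Mvk*, *Fads1*, *Scd1*, *Tm7sf2*, *Sqle*, *Idi1* and *Acaca*.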
